A study of Mus musculus with 46 samples.

Results

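Oligodendrocyte precursor genes were followed in subventricular zone (SVZ) tissue of mice whose microglia had been removed with PLX3397. The set holds 9 genes, Pdgfra, Cspg4, Ptprz1, Olig1, Olig2, Sox10, Gpr17, Bcas1 and Neu4, of the 15695 genes in the SVZ table, and all 9 passed the expression limit that 14151 genes passed. The genes were picked because precursor genes were lower in PLX3397 tissue than in control tissue, so the fall itself is given below as a description and not as a test. The rule of the choice named neither the level after the inhibitor was withdrawn nor how the genes varied between mice of a group. The genes were still chosen with earlier results of these data known, so comparisons of the recovery group are not an independent test for them.

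The tissue came from 15 male C57BL/6 mice, which carried no transgene and by the study's methods were 1.5 months old unless stated otherwise. Control mice (ControlSVZ, n = 5) ate vehicle chow. The 14 day PLX3397 mice (ElimSVZ, n = 5) ate chow with 600 ppm PLX3397, an inhibitor of the receptor kinases CSF1R, KIT and FLT3, for 14 days, and the 5 day recovery mice (RepopSVZ, n = 5) ate the same chow for 14 days and then vehicle chow for 5 days. Bulk tissue of the walls of the lateral ventricles was dissected, so fewer precursor cells and less RNA per cell cannot be told apart, and each library is a separate mouse.

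Oligodendrocyte precursors are dividing glia that persist in the adult brain and replenish myelinating oligodendrocytes. They survive and divide in response to PDGF-AA, which binds the receptor PDGFRα, and they pass through a committed stage, marked by Gpr17, before they form myelin. In the SVZ they lie beside neural stem cells, neuroblasts, ependymal cells and the myelin of the overlying corpus callosum.

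Promoters are shown for Pdgfra, Cspg4 and Neu4, which stood at different shares of their control level after withdrawal. RefSeq (GRCm38.p6, the mm10 build that the submitters' notes name) gave a promoter for 5 of the 9 genes, Pdgfra, Cspg4, Ptprz1, Olig2 and Neu4. The 250 bases before each start site are given on the + strand, 5′ to 3′, at chr5:75152001-75152250 for Pdgfra, chr9:56864854-56865103 for Cspg4 and chr1:94020243-94020492 for Neu4. Capitals mark matches, on either strand, to the E-box CANNTG, which basic helix-loop-helix factors such as Olig1 and Olig2 bind, or to the SOX type motifs ACAAAG and ACAATG.
Pdgfra: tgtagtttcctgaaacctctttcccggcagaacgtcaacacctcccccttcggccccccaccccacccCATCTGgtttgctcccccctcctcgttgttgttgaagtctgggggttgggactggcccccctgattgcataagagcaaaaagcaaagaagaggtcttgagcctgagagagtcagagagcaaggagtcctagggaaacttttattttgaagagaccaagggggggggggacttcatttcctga
Cspg4: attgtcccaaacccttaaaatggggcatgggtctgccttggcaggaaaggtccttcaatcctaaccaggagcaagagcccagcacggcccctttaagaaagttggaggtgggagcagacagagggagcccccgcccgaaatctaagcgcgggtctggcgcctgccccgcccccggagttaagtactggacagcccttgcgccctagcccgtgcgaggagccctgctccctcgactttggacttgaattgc
Neu4: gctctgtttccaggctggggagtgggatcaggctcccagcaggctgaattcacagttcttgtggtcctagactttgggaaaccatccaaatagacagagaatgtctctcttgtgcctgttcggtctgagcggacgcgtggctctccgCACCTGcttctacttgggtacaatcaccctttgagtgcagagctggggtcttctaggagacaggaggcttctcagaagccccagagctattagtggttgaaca
An E-box was found in the Pdgfra and Neu4 windows, 1 each, and in none of the other 3. Of all 32851 promoter windows of this length, 66.2% held an E-box and 25.2% a SOX type motif, and among the 5 windows only that of Olig2 held a SOX type motif. These are matches of letters and not measured sites.

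The SVZ libraries held 4.57 M to 10.5 M reads in genes, and the 9 genes had between 23 and 2389 reads per library. Levels are given as FPKM, in which reads are scaled for gene length and sequencing depth, so levels of different genes can be set side by side. In a principal component analysis of the tested genes, 5 day recovery mice 4 and 5 stood apart on the first component (24.5% of the variance, at -43.8 and -33.3 against -4.26 to 14.97 in the other 13 libraries). Control mouse 1 stood apart on the second component and held choroid plexus RNA, with a summed level of 21800 FPKM over 7 choroid plexus genes against 18.4 to 51.7 in the 14 day PLX3397 libraries. Results that rest on recovery mice 4 and 5 are given with and without them.

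Csf1r, the receptor that PLX3397 blocks, went from 38.8 ± 5.15 FPKM in control tissue to 0.163 ± 0.0877 in 14 day PLX3397 tissue and 1.52 ± 0.539 in 5 day recovery tissue (mean ± SD, n = 5 each). All 10 microglia genes listed passed the limma test as lower in both groups than in control, with median log2 differences of -4.18 and -3.34. Their summed level was 269 to 377 FPKM in control, at most 14.7 with PLX3397 and 22.1 to 34.7 after withdrawal, when 5 of the 10 were called higher than with PLX3397.

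Among the receptors and surface proteins, Pdgfra (Entrez 18595) was lower in 14 day PLX3397 tissue than in control and nearer to control after 5 days of withdrawal. Pdgfra encodes PDGFRα, the PDGF-AA receptor on which precursors depend. Its levels were 5.13, 4.84, 5.03, 5.66 and 5.35 FPKM in the control mice, 1.65, 1.99, 1.67, 2.44 and 2.77 FPKM in the 14 day PLX3397 mice, and 4.44, 4.29, 4.17, 4.11 and 4.19 FPKM in the 5 day recovery mice. The 3 groups did not overlap: every recovery mouse lay above every PLX3397 mouse and below every control mouse. The group means were 40.5% ± 9.45 of control with PLX3397 and 81.6% ± 2.46 after withdrawal (SD, n = 5 each). The recovery mice were the most alike of all groups for this gene, with a coefficient of variation of 3.02%, and mice 4 and 5 (79.1% and 80.7% of control) lay beside mice 1 to 3 (82.7% ± 2.58, n = 3).

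Cspg4 (Entrez 121021) encodes the NG2 proteoglycan of precursors, which pericytes also carry. It measured 2.36, 3.15, 2.88, 3.13 and 3.18 FPKM in control mice, 0.926, 1.55, 1.06, 1.51 and 1.29 FPKM in PLX3397 mice, and 2.17, 2.34, 2.41, 1.09 and 1.12 FPKM in recovery mice. PLX3397 mice lay below all control mice (43.0% ± 9.22 of control), whereas recovery mice split: mice 1 to 3 reached 78.4% ± 4.18 of control (n = 3) and mice 4 and 5 stayed at 37.1% and 38.01%. The summed level of 8 pericyte and mural cell genes was 92.2 to 103 FPKM in control, 82.0 to 133 in PLX3397 and 94.6 to 114 in recovery libraries, and its part in the Cspg4 level was not tested.

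Ptprz1 (Entrez 19283), a receptor phosphatase with chondroitin sulfate chains that astrocytes and neural stem cells also express, was picked with the others but stood at the control level in both groups. It ranged from 20.2 to 24.8 FPKM (median 21.9) in control mice, from 20.1 to 26.1 (median 22.6) in PLX3397 mice and from 17.6 to 22.7 (median 21.9) in recovery mice. The groups overlapped, and the mean was 104% of control with PLX3397 and 94.8% after withdrawal.

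Of the transcription factors, Olig2 (Entrez 50913) had a lower mean in PLX3397 tissue than in control, Olig1 (Entrez 50914) also a lower and Sox10 (Entrez 20665) a higher mean. Olig1 and Olig2 specify the lineage, and Sox10 acts from the precursor to the myelinating cell. Olig2 measured 9.48, 11.9, 15.5, 14.4 and 12.8 FPKM in control mice, 7.53, 8.08, 6.70, 11.5 and 7.30 FPKM in PLX3397 mice, and 10.2, 13.6, 11.7, 7.80 and 8.58 FPKM in recovery mice. The Olig2 groups overlapped, with means of 64.1% and 81.0% of control. Olig1 averaged 101 ± 9.46 FPKM in control, 81.6 ± 20.9 with PLX3397 and 73.6 ± 23.4 after withdrawal, and its groups overlapped as well. Sox10 averaged 55.5 ± 7.48 FPKM in control, 61.4 ± 16.5 with PLX3397 and 40.9 ± 8.43 after withdrawal. PLX3397 mouse 4 held 88.0 FPKM of Sox10, and without this mouse the PLX3397 mean was 98.5% of control. For each of these 3 factors the lowest recovery libraries were those of mice 4 and 5.

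Gpr17 and Neu4 were low with PLX3397 and stayed low after withdrawal. Gpr17 (Entrez 574402) encodes a G protein-coupled receptor of committed precursors. Its levels were 4.53, 7.07, 7.36, 7.87 and 6.60 FPKM in control mice, 3.30, 3.38, 2.53, 3.89 and 1.99 FPKM in PLX3397 mice, and 2.08, 2.57, 2.78, 0.537 and 0.561 FPKM in recovery mice. All PLX3397 and all recovery mice lay below all control mice, at 45.1% ± 11.2 and 25.5% ± 16.3 of control. Recovery mice 1 to 3 held 37.1% ± 5.44 of the control level and mice 4 and 5 held 8.04% and 8.40%.

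Neu4 (Entrez 241159) encodes a sialidase, an enzyme that trims sialic acid from glycoproteins and glycolipids. It measured 3.30, 3.49, 5.36, 4.55 and 4.98 FPKM in control mice, 0.937, 1.82, 0.689, 1.37 and 0.925 FPKM in PLX3397 mice, and 1.89, 0.888, 1.30, 1.19 and 0.899 FPKM in recovery mice. The PLX3397 and recovery mice overlapped with each other and both lay below all control mice, at 26.5% ± 10.3 and 28.5% ± 9.47 of control. Recovery mice 4 and 5 (27.5% and 20.7%) lay among the others for Neu4.

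Bcas1 (Entrez 76960) marks oligodendrocytes that are beginning to myelinate and is also part of mature myelin. It averaged 49.95 ± 4.47 FPKM in control, 43.3 ± 13.7 with PLX3397 and 40.8 ± 7.61 after withdrawal, with overlapping groups. PLX3397 mouse 4 held 67.0 FPKM, above every control mouse, while the other 4 PLX3397 mice held 32.3 to 41.1 FPKM, below every control mouse.

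**Figure D1:**
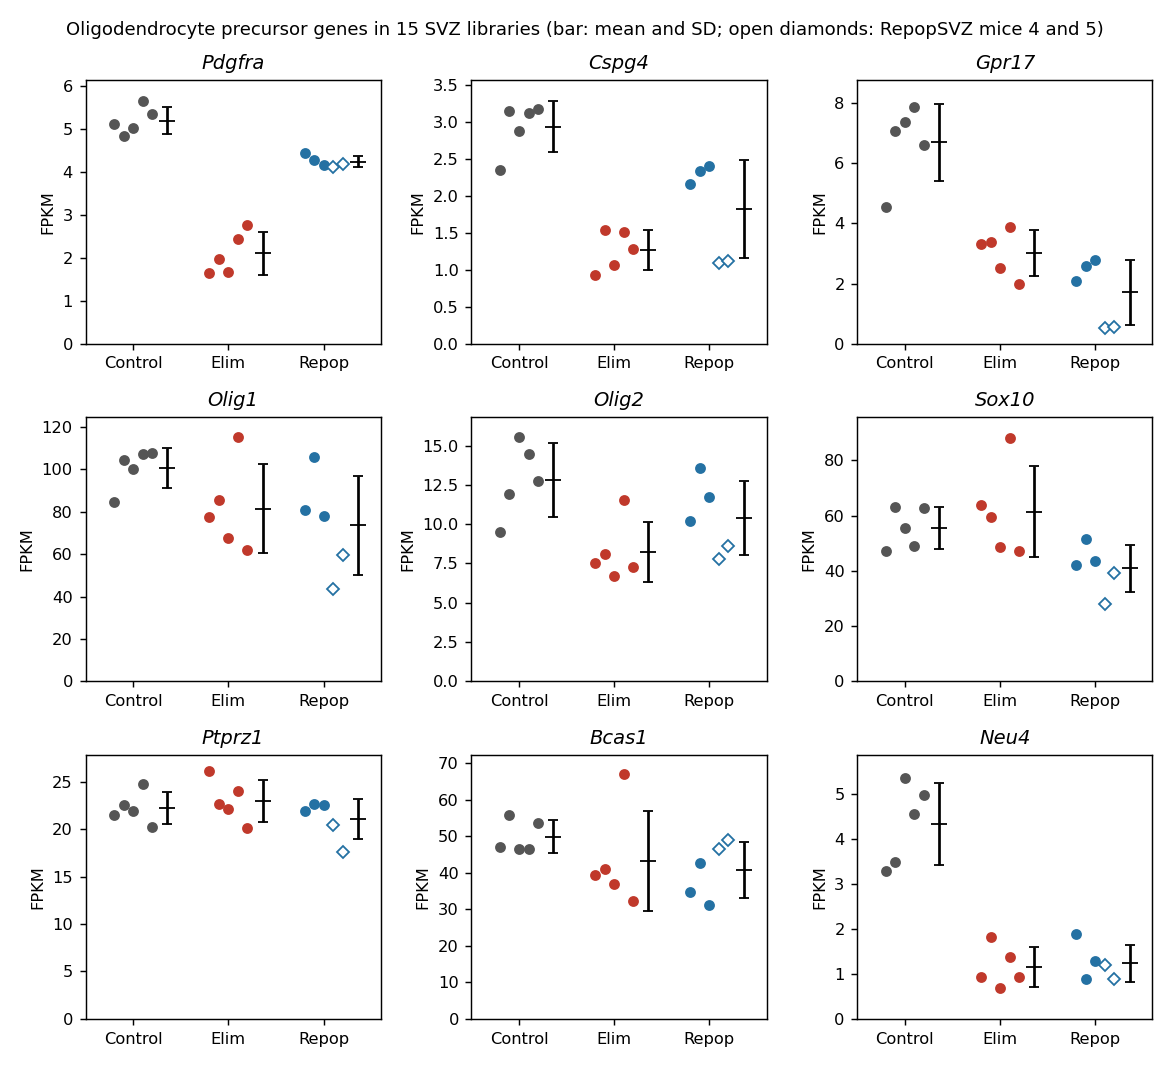
FPKM of the 9 precursor genes (y axis, linear from 0) in 15 SVZ libraries by group (x axis), 1 point per mouse, with the mean and SD beside each group and open diamonds for 5 day recovery mice 4 and 5. Pdgfra forms 3 separate levels, Neu4 is at 26.5% of control with PLX3397 and 28.5% after withdrawal, and Ptprz1 is at 104% and 94.8%.

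In the contrast that chose the genes, 7 of 9 were lower and 2 higher (Sox10 and Ptprz1) in 14 day PLX3397 than in control tissue. The Sox10 difference changed sign without PLX3397 mouse 4 (-0.0224). The choice of the genes bears on every value of this contrast, so the counts that follow are a description and support nothing. By limma 3 were called lower (Pdgfra, Cspg4 and Neu4), where 1.21% of all tested genes were called lower (0.0565% higher, 1.26% in either direction, and 6.12% at an unadjusted p under 0.05). With recovery mice 4 and 5, or mouse 4 alone, left out of the shared fit, Gpr17 was called as well, as it was in a fit of only the groups compared. Olig2 was called without control mouse 1 and without PLX3397 mouse 4. The PLX3397 mice lay below every control mouse for 4 of the 9 genes, and for 1.92% of all tested genes. The log2 differences of FPKM + 1 ran from -1.32 for Neu4, -1.01 for Pdgfra, -0.94 for Gpr17 and -0.80 for Cspg4 to 0.12 for Sox10.

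The state after withdrawal was compared with both other groups, and these comparisons share control or PLX3397 libraries with the contrast that chose the genes. Against control, all 9 genes were lower in 5 day recovery tissue, and 2 (Gpr17 and Neu4) were called lower, beside 1.09% of all genes (0.184% were called higher, 1.27% in either direction, and 16.6% had an unadjusted p under 0.05). Recovery mice lay below every control mouse for 3 genes (Pdgfra, Gpr17 and Neu4), beside 1.97% of all genes. Against 14 day PLX3397 tissue, 4 genes were higher and 5 lower, and 1 (Pdgfra) was called higher, beside 0.29% of all genes (0.0353% were called lower, 0.325% in either direction, and 16.5% had an unadjusted p under 0.05). Pdgfra was also the 1 gene whose recovery mice all lay above the PLX3397 mice, beside 2.11% of all genes, with 1.42% all below. The log2 differences of Pdgfra were -0.24 ± 0.10 (SE) against control and 0.77 ± 0.10 against PLX3397, those of Neu4 -1.26 ± 0.16 and 0.06 ± 0.16, and those of Gpr17 -1.60 ± 0.25 and -0.66 ± 0.25. Without recovery mice 4 and 5, the same 3 calls held, and the Gpr17 values were -1.13 and -0.19.

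A contrast that does not use the difference between control and PLX3397 sets the recovery group against the midpoint of the other 2 groups. It asks whether a gene after 5 days of withdrawal lay above or below the middle of those groups, and not which group was nearer. Recovery tissue can lie outside both groups, as for Gpr17, with means of 6.69 FPKM in control, 3.02 with PLX3397 and 1.71 after withdrawal. Gpr17 was the only one of the 9 genes that passed, below the midpoint by a log2 difference of -1.13 ± 0.21 (SE; limma, Benjamini-Hochberg adjusted p = 0.0156), where 0.587% of all tested genes were called lower and 0.848% in either direction, with 20.5% at an unadjusted p under 0.05. The call was lost without recovery mouse 4 (-0.95, adjusted p = 0.0551), without mouse 5 (-0.95, adjusted p = 0.0665) and without both (-0.66, adjusted p = 0.141). With all mice and a pseudocount of 0.1 the adjusted p was 0.05 and did not pass. Neu4 lay below the midpoint by -0.60 ± 0.14 and missed the threshold (adjusted p = 0.0549, and 0.0293 to 0.422 over the alternatives), as did Sox10 at -0.51 ± 0.15 (adjusted p = 0.105). Pdgfra was the gene farthest above the midpoint, at 0.26 ± 0.09, and did not pass either (adjusted p = 0.121). Over the 9 genes the median difference was -0.18 against -0.0077 over all tested genes, and it was -0.0331 without recovery mice 4 and 5.

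**Figure D2:**
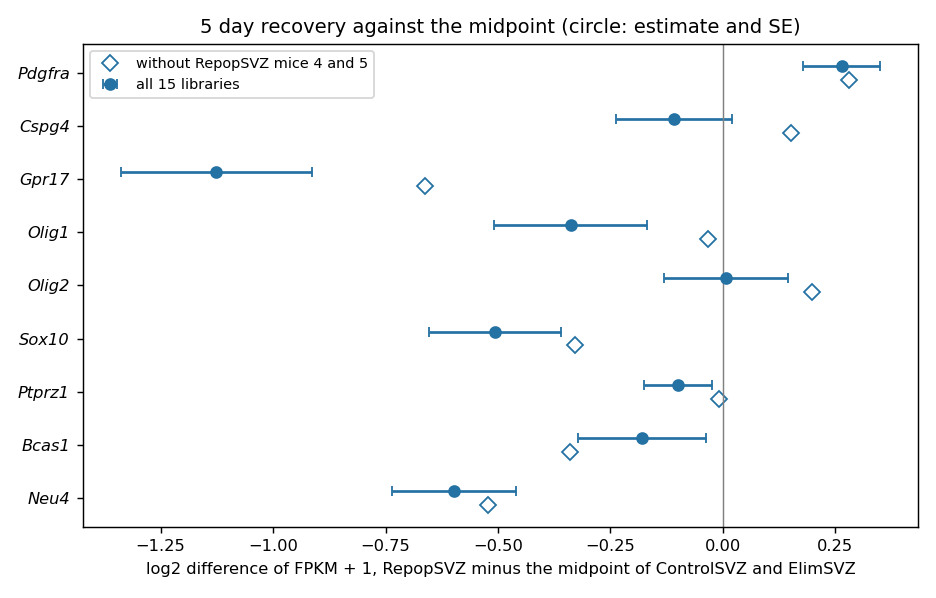
Log2 difference of FPKM + 1 (x axis) between 5 day recovery and the midpoint of control and 14 day PLX3397 tissue for each precursor gene (y axis). Circles give the estimate with its standard error over all 15 libraries and open diamonds the estimate without recovery mice 4 and 5, which moves Gpr17 from -1.13 to -0.66 and leaves Pdgfra at 0.26 and 0.28.

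Ratios between the genes were taken within each library. The ratio of Pdgfra to Gpr17 FPKM was 0.806 ± 0.189 in control, 0.754 ± 0.362 with PLX3397 and 4.09 ± 3.18 after withdrawal, where the lowest recovery mouse (1.5) lay above the highest control (1.13) and PLX3397 (1.39) mouse. Recovery mice 4 and 5 stood at 7.65 and 7.47 and mice 1 to 3 at 1.77 ± 0.332 (n = 3). The ratio of Pdgfra to Neu4 was 1.24 ± 0.244, 2.01 ± 0.726 and 3.70 ± 1.04, and its PLX3397 and recovery mice overlapped. The ratio of Sox10 to Olig2 was 4.43 ± 0.878 in control, 7.44 ± 0.738 with PLX3397 and 3.96 ± 0.383 after withdrawal, and the PLX3397 mice (6.44 to 8.49) lay above all others. These ratios were chosen after the values were seen and were not tested.

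Recovery mice 4 and 5 lay below recovery mice 1 to 3 for 6 of the 9 genes, above them for Bcas1 and among them for Neu4. Of all tested genes, 21.2% lay below and 21.1% above in the same way. For Pdgfra, mouse 4 (4.11 FPKM) lay just below mice 1 to 3 (4.17 to 4.44 FPKM) and mouse 5 (4.19 FPKM) among them. Olig1 was at 43.4% and 59.2% of control in mice 4 and 5 against 87.5% ± 15.1 in mice 1 to 3, and Olig2 was at 60.8% and 66.9% against 92.3% ± 13.2. Sox10 was at 50.7% and 70.3% against 82.3% ± 8.95. The summed level of 20 other precursor genes was 163 and 184 FPKM in these mice and 209 to 284 FPKM in the other 13. Their astrocyte sum was 2170 and 2750 FPKM against 1300 to 1940, and their myelin sum 5160 and 6010 FPKM against 3400 to 4540 in recovery mice 1 to 3 and 3400 to 7860 in all other 13 libraries. The part of these differences in the precursor levels was not tested.

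Within groups, the 9 genes did not vary as a single block. After the group means of log2(FPKM + 1) were taken out, Pearson's r over the 15 libraries ranged from -0.25 to 0.91 over 36 pairs with a median of 0.39, and 13 pairs were above 0.5. Olig1 with Sox10 had the highest r (0.91), then Cspg4 with Gpr17 (0.87), Gpr17 with Olig1 (0.86) and Olig1 with Olig2 (0.86), whereas Pdgfra with Gpr17 was at -0.01. The points of a pair share a library and its depth, and r between Cspg4 and Gpr17 went from 0.87 to 0.55 without recovery mice 4 and 5.

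The members were also set against the amount of myelin RNA in each library, with r taken between log2(FPKM + 1) of the gene and log2 of the summed level. Over the 13 libraries without recovery mice 4 and 5, r within groups with the summed level of 18 myelin genes was 0.97 for Bcas1, 0.94 for Sox10 and 0.91 for Olig1, 0.65 for Olig2, 0.56 for Gpr17, 0.35 for Cspg4, 0.32 for Ptprz1, 0.17 for Neu4 and 0.06 for Pdgfra. The PLX3397 mouse 4 had the highest myelin sum of all (7860 FPKM against 3400 to 6010 in the other 14), and without it as well r was 0.92 for Bcas1, 0.88 for Sox10 and 0.80 for Olig1, and 0.02 for Neu4 and -0.41 for Pdgfra. With all 15 libraries, r was 0.96 for Bcas1, 0.39 for Sox10 and 0.13 for Olig1. With the summed level of the other precursor genes, r over 15 libraries was 0.82 for Cspg4, 0.77 for Gpr17, 0.68 for Olig1 and 0.63 for Sox10, and over 13 libraries it was 0.47, 0.31, 0.16 and 0.38. With the astrocyte sum, r over 13 libraries was 0.72 for Olig2, 0.70 for Gpr17, 0.67 for Cspg4 and 0.65 for Olig1, and over 15 libraries it was 0.03, -0.34, -0.36 and -0.11. Only Bcas1 with myelin was above 0.9 in each set of libraries. These coefficients are descriptions with no test.

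**Figure D3:**
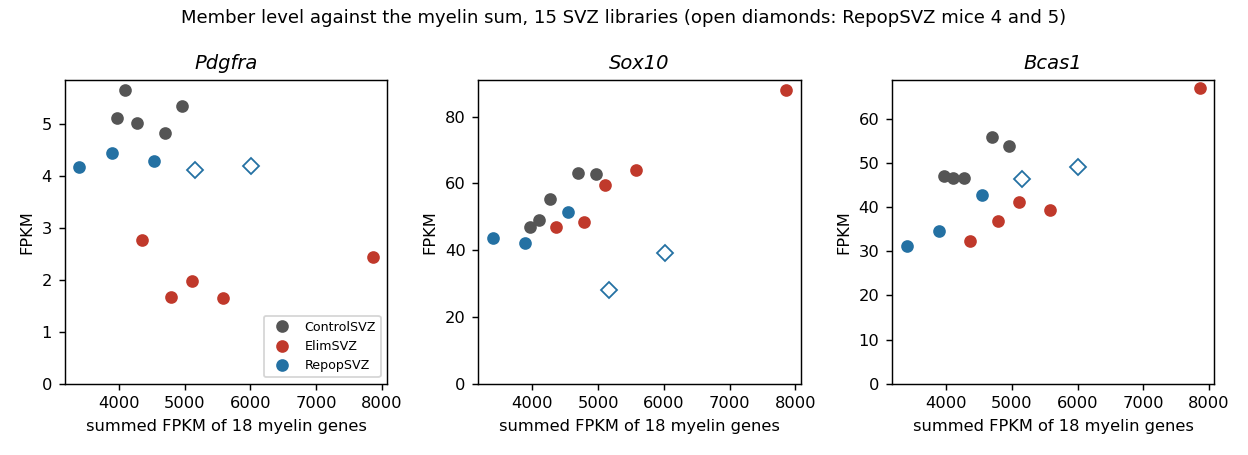
FPKM of Pdgfra, Sox10 and Bcas1 (y axes, linear from 0) against the summed FPKM of 18 myelin genes (x axis) in the 15 SVZ libraries, coloured by group, with open diamonds for recovery mice 4 and 5. Without mice 4 and 5, Sox10 and Bcas1 rise with the myelin sum within groups (r of 0.94 and 0.97 on log2 values). Over all 15 libraries r is 0.39 and 0.96, and the Pdgfra groups lie in 3 bands at any myelin sum.

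Other genes of the lineage were grouped by stage. The genes of a list share each library, so their directions are not separate observations. Of 19 tested precursor genes outside the set, 18 were lower in PLX3397 tissue than in control, with a median log2 difference of -0.23 against 0.0062 over all genes. A single gene was called, Matn4, a matrix protein of precursors, at 3.78 ± 0.50 FPKM in control and 1.48 ± 0.506 with PLX3397 (log2 difference -0.96 ± 0.20, adjusted p = 0.0202, range over the alternatives 0.000596 to 0.0769). Without control mouse 4 or 5 or PLX3397 mouse 2 or 3, no gene of this list was called, and without PLX3397 mouse 4 there were 2. The call of Matn4 was lost without control mouse 1 as well (adjusted p = 0.0515), and in these fits its difference was -0.89 to -0.94. After withdrawal, 14 of the 19 were lower than in control (median -0.18, and -0.11 without recovery mice 4 and 5) and 14 higher than with PLX3397 (median 0.14), with 0 called by limma on FPKM or by limma-voom on reads in either comparison, and 7 and 5 at an unadjusted p under 0.05.

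Genes of committed precursors and newly formed oligodendrocytes were lower after withdrawal than in control in 13 of 13 cases. The median log2 difference was -0.34 (-0.18 without recovery mice 4 and 5) against -0.0056 over all genes, and 2 of the 13 were called. The first, 9630013A20Rik, a noncoding RNA of committed precursors, fell from 3.64 ± 0.810 FPKM in control to 0.535 ± 0.314 FPKM in recovery tissue, with 2.21 ± 1.15 FPKM in PLX3397 tissue. Fyn, a kinase of differentiating oligodendrocytes that neurons also express, stood at 9.63 ± 0.538, 6.70 ± 0.865 and 5.95 ± 0.323 FPKM in control, PLX3397 and recovery tissue and was called lower than control in both. Both were also below the midpoint of the other groups (adjusted p = 0.00127 for 9630013A20Rik and 0.0193 for Fyn), as Gpr17 was, and neither passed without recovery mice 4 and 5 (adjusted p = 0.0516 and 0.0732). On that change their differences from the midpoint went from -1.31 to -1.17 and from -0.38 to -0.41. The Fyn call was also lost with quantile normalization (-0.32, limma adjusted p = 0.0664) and without recovery mouse 4 (-0.37, adjusted p = 0.0515).

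Myelin genes were not called in PLX3397 tissue. All 18 had higher estimates than in control, with a median log2 difference of 0.31 against 0.0062 over all genes. Of the 18, 0 passed in limma on FPKM or limma-voom and 5 had an unadjusted p under 0.05. In a fit of only the groups compared, and in a fit without recovery mice 4 and 5, 1 was called higher. PLX3397 mouse 4 held the highest myelin sum (7860 FPKM), and the other 4 PLX3397 mice (4360 to 5580 FPKM) overlapped the control mice (3970 to 4960 FPKM). After withdrawal 16 of 18 had lower estimates than with PLX3397, and 1 was called: Cldn11, a tight junction protein of myelin, at 240 ± 13.7 FPKM in control, 316 ± 62.7 with PLX3397 and 203 ± 25.9 in recovery tissue (log2 difference -0.63 ± 0.12, adjusted p = 0.0265). Without recovery mice 4 and 5 the difference was -0.58 and the adjusted p 0.155, and the call was also lost without PLX3397 mouse 1 or 2, without recovery mouse 1 or 4, and in a fit of only the groups compared (adjusted p from 0.0517 to 0.102, with differences of -0.57 to -0.64). Among 14 regulators of the lineage, Sox8, a partner of Sox10, was called below the midpoint after withdrawal (55.1 ± 6.31, 55.7 ± 4.31 and 37.5 ± 8.88 FPKM, log2 difference -0.58 ± 0.12, adjusted p = 0.0297). That call was lost without recovery mice 4 and 5 (-0.33, adjusted p = 0.165) and when any of 9 single libraries was left out, with differences of -0.44 to -0.58. With a pseudocount of 0.1 the Sox8 difference was -0.59, and the limma adjusted p was 0.05 and did not pass.

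**Figure D4:**
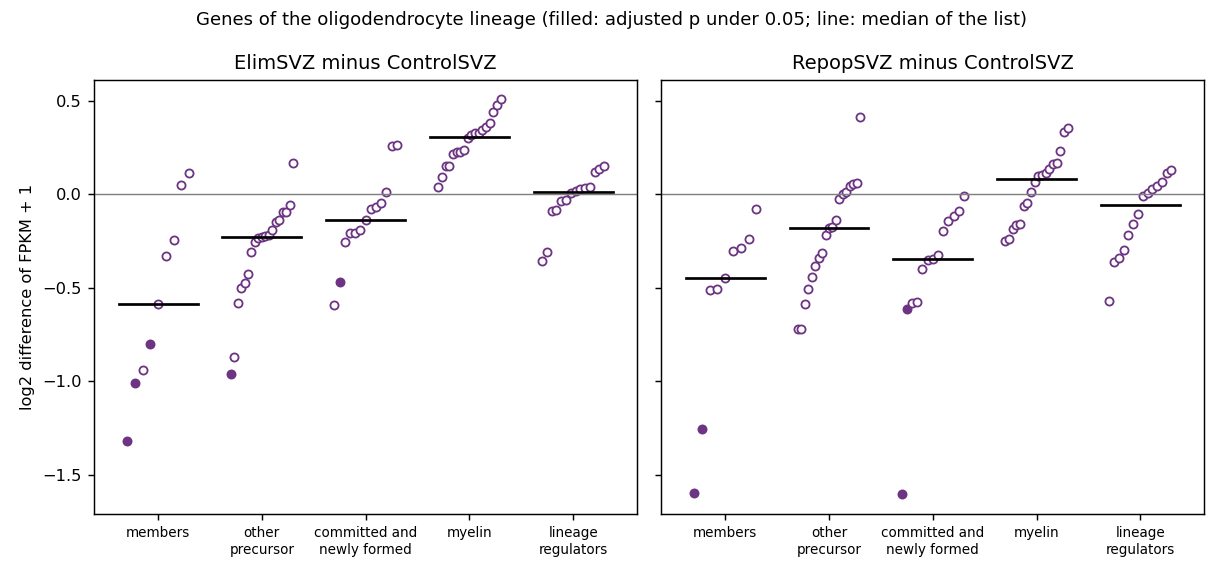
Log2 differences of FPKM + 1 (y axis) in PLX3397 tissue (left) and 5 day recovery tissue (right) against control for the 9 precursor genes and 4 lists of lineage genes (x axis), 1 point per tested gene, filled where the adjusted p is under 0.05, with a line at each median. In PLX3397 tissue the medians are -0.59, -0.23, -0.14, 0.31 and 0.01 from left to right.

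None of the PDGF ligand genes was called in any of the 4 comparisons. Pdgfa, which encodes the PDGF-AA chain, stood at 32.9 ± 3.82 FPKM in control, 38.9 ± 3.69 with PLX3397 and 33.5 ± 3.81 after withdrawal, and Pdgfd at 2.36 ± 1.63, 1.71 ± 0.216 and 1.97 ± 0.318 FPKM. Pdgfb stood at 2.25 ± 0.335, 2.49 ± 0.542 and 1.89 ± 0.489 FPKM and Pdgfc at 1.87 ± 0.503, 1.82 ± 0.542 and 1.59 ± 0.457 FPKM. The related receptor gene Pdgfrb stood at 4.23 ± 0.561, 3.73 ± 0.276 and 2.91 ± 0.988 FPKM and was not called. Of the other kinases that PLX3397 blocks, Kit stood at 6.86 ± 1.28, 7.55 ± 0.604 and 7.02 ± 0.648 FPKM and Flt3 at 4.39 ± 0.984, 3.91 ± 1.29 and 4.13 ± 1.11 FPKM. Of the 12 genes of this list, Csf1r was the only one called in any of the 4 comparisons. Against the midpoint, its call was lost with a pseudocount of 0.1 (limma adjusted p = 0.05) and with limma-voom (adjusted p = 0.129). Without recovery mouse 3, 2 genes of the list were called below the midpoint. None of the 6 tested partners of Ptprz1 and Cspg4, which include the ligand Ptn and the contactin Cntn1, was called by limma on FPKM or limma-voom, and 0, 1, 2 and 2 of them had an unadjusted p under 0.05 in the 4 comparisons.

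Markers of other cells moved with the groups beside these genes. Gfap, an astrocyte filament, rose from 62.0 ± 10.3 FPKM in control to 135 ± 22.3 with PLX3397 and 168 ± 49.8 after withdrawal. It was the only one of 10 astrocyte genes called against control in either group. The 4 erythrocyte genes summed to 32.4 to 79.3 FPKM in control, 41.8 to 57.9 with PLX3397 and 91.3 to 336 FPKM after withdrawal. Of these 4 genes 3 were called higher than in control after withdrawal, by limma on FPKM, and 1 without recovery mice 4 and 5. No gene of the neuroblast, neuron, neural stem, ependymal, endothelial, pericyte, fibroblast or choroid plexus lists was called in PLX3397 tissue against control by limma on FPKM or limma-voom, with 1 gene each of the neural stem, choroid plexus and fibroblast lists at an unadjusted p under 0.05. In the recovery comparisons the only call in these lists by limma on FPKM was 1 fibroblast gene, below the midpoint. With limma-voom, and without recovery mice 4 and 5, 0 fibroblast genes were called there. The part of any of these in the precursor levels was not tested.

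The genes whose pattern over the 15 libraries was most like the mean z-score of the 9 were Susd5 (Pearson's r = 0.89), Snx22 (0.89), Abhd15 (0.89), Elavl1 (0.87) and Afap1l2 (0.86). Group means were left in for this ranking, so it includes the fall that chose the 9 genes and is a description only. Susd5 stood at 2.03 ± 0.417, 0.699 ± 0.237 and 0.660 ± 0.306 FPKM in control, PLX3397 and recovery tissue, and Snx22 at 5.38 ± 0.791, 2.69 ± 0.399 and 3.07 ± 0.796 FPKM.

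The same genes were looked up in sorted CD11b+CD45int cells from brain hemispheres, a gate for microglia, which were sequenced in another experiment and normalized in a table of their own. Here 24 libraries came from control mice (ControlAltRepop) or from mice after 14 days of PLX3397 and 28 days of recovery (AltRepop), taken 6 or 24 hr after lipopolysaccharide (LPS) or, as 0 hr, from mice given no LPS. Olig2 is not listed there, and the other 8 genes had medians of 0 to 0.143 FPKM over the 24 libraries, beside 542 to 2649 FPKM for the microglial gene Cx3cr1. Cspg4 was the gene with the highest single level. It measured 0.118, 0.177, 0.319 and 0.159 FPKM in AltRepop cells at 0 hr, 3.25, 3.93, 1.13 and 2.74 FPKM at 6 hr, and 1.14, 0.996, 0.697 and 0.538 FPKM at 24 hr. The 12 ControlAltRepop libraries held 0 to 0.156 FPKM. At each time all AltRepop libraries lay above all ControlAltRepop libraries, as 7.61%, 2.11% and 5.76% of the 12684 genes above the expression limit did at 0, 6 and 24 hr. Cspg4 passed that limit only through AltRepop libraries, so nothing is read from those shares. In the same 6 hr AltRepop libraries Pdgfra held 0.0458 to 0.348 FPKM. Cspg4 was singled out after its values were seen, and no test was made. In a separate table of 7 sorted libraries the same 8 genes had higher medians, of 0.522 to 1.07 FPKM, and the 2 tables were normalized separately. There, Cspg4 held 0.661 to 0.972 FPKM in 4 control libraries and 0.367 to 1.28 FPKM in 3 libraries of mice given PLX3397 for 7 days and then 28 days of recovery (RegularRepop), and these overlapped.

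**Figure D5:**
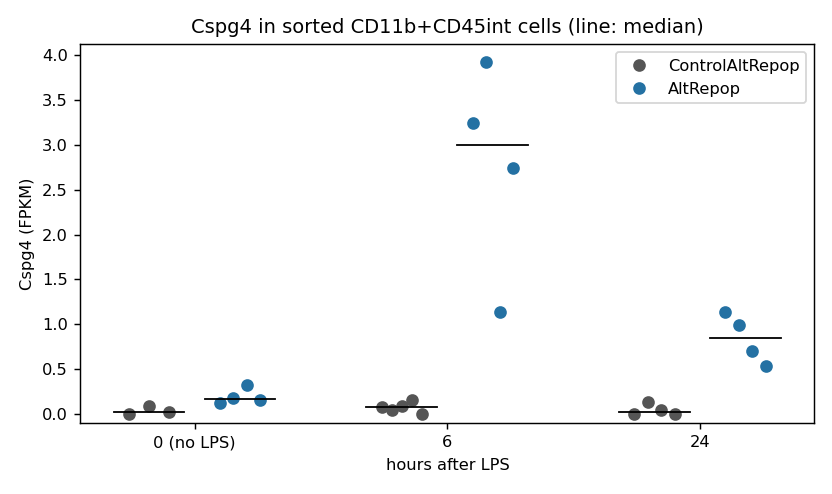
Cspg4 FPKM (y axis, linear) in sorted CD11b+CD45int cells of mice given no LPS (0) and at 6 and 24 hours after LPS (x axis), 1 point per library with a line at each median, for ControlAltRepop and AltRepop. AltRepop cells reach 1.13 to 3.93 FPKM at 6 hr, and all ControlAltRepop libraries are at or under 0.156 FPKM.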

How the data were processed

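RNA of micro-dissected SVZ tissue was sequenced in 15 libraries. By the study's methods, the authors made cDNA by Smart-seq2, sequenced paired ends, aligned with STAR, counted reads per gene with featureCounts and normalized with edgeR and limma. The labels describe another library protocol for the same samples. The deposited values are FPKM, and mm10 is the build in the submitters' processing notes. Groups came from the sample titles. Spreadsheet dates in place of 25 symbols were replaced through Entrez IDs.

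Here, the 14151 genes that reached an FPKM of 1 in 3 or more libraries went into limma 3.58.1 (R 4.3.3, trend). Values were log2(FPKM + 1), the fit held the 3 groups together, and tests were 2-sided, with Benjamini-Hochberg adjustment over all tested genes and calls at 0.05. The pseudocount of 1 shrinks differences of low genes. The contrast against the midpoint is orthogonal to the contrast that chose the genes. The steps were tested on simulated data. FPKM steps gave gene lengths and whole reads, which were used for depth and, added after seeing the data, for limma-voom. Other alternatives were another pseudocount, no filter, quantile normalization, median centring, only the groups compared, no trend, the replicate number as a block and each library left out.

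The 9 genes and all lists were chosen with earlier results of these data known. The text names the 9 genes, up to 6 called genes of each lineage list (the 2 with the smallest adjusted p in PLX3397 against control where none was called), any gene of the PDGF and proteoglycan lists, up to 2 called and the 2 defining genes of other cell lists, and the 5 genes most like the mean z-score of the 9. Figures were drawn with matplotlib 3.10.9 in Python 3.11.15.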

Additional observations from a re-analysis of the deposited data

Results flagged for a closer look

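In 14 day PLX3397 mouse 4, Olig2 (11.5 FPKM) and Bcas1 (67.0 FPKM) lay farther from the other 4 mice of the group than Dixon's 95% limit for 5 values allows. The other PLX3397 mice held 6.70 to 8.08 FPKM of Olig2 and 32.3 to 41.1 FPKM of Bcas1. The same mouse had the highest myelin sum (7860 FPKM). Of 27 sets of a gene and a group, 2 were flagged, and chance flags about 1 in 20.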

How the results depend on the processing

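Against control, the 2 calls of Gpr17 and Neu4 in 5 day recovery tissue, and against PLX3397 the call of Pdgfra, held under every alternative run. The count of called genes against the midpoint was 0 of the 9 with a pseudocount of 0.1 and without recovery mice 4 and 5, and 2 without a trend. It ranged from 0 to 2 when single libraries were left out. The cause was not tested. Over all genes, that contrast called 120, but 43 with a pseudocount of 0.1, 44 without recovery mice 4 and 5, 52 with limma-voom, and 67 to 906 without single libraries, with 906 without recovery mouse 3. Recovery against PLX3397 called 46 genes, 29 in a fit of only the groups compared, 25 without recovery mice 4 and 5 and 23 to 86 without single libraries. Recovery against control called 180, and 153 to 330 without single libraries, with 330 without recovery mouse 3. Of the other precursor genes, 1 was called in PLX3397 tissue, 2 with limma-voom, and 0 to 2 without single libraries.

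Differences near 0 changed sign. Without recovery mice 4 and 5, Ptprz1 stood at 0.0136 against control, Olig1 at 0.13 against PLX3397 and Cspg4 at 0.15 against the midpoint, and Olig2 against the midpoint was at -0.0044 with limma-voom. Without single libraries, Sox10 in PLX3397 tissue ranged from -0.0224 to 0.20, Bcas1 in recovery against PLX3397 from -0.15 to 0.11, Neu4 in the same comparison from -0.0353 to 0.17 and Olig2 against the midpoint from -0.089 to 0.0934.

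The labels number mice 1 to 5 in each group. Of 15 same-numbered pairs, 5 had a correlation over 0.1 (range -0.15 to 0.49), and 4 of 15 libraries correlated best with their own number. No chance level was computed, so these counts do not settle whether the numbers pair the mice. With the replicate number as a block, 166 genes were called in PLX3397 tissue against control, and 201, 32 and 119 in recovery tissue against control, PLX3397 and the midpoint. Of the other precursor genes, 0 were called in PLX3397 tissue, and Cldn11 was no longer called in recovery against PLX3397. The differences of Matn4 (-0.96) and Cldn11 (-0.63) were the same as without the block, with limma adjusted p of 0.0684 and 0.0784. Of the 9 genes, 3, 2, 1 and 1 were called in PLX3397 against control and in recovery against control, PLX3397 and the midpoint, as many as without the block.

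Gpr17 and Neu4 had as few as 23 reads in a library, so their low levels carry counting error of that size, and a single read on 2 kb was worth 0.0471 to 0.109 FPKM.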
